A study of Mus musculus with 6 samples.

Results

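Fatty acid synthesis and desaturation genes were compared between db/db and db/m islets, as a list of 10 genes chosen by symbol from the 44713 genes counted: Acly, Acaca, Acacb, Fasn, Thrsp, Me1, Elovl6, Elovl5, Scd1 and Scd2. The list follows the route from cytosolic citrate to monounsaturated fatty acids. Total RNA was depleted of rRNA and sequenced from the islets of 3 db/db mice (strain BKS.Cg-Dock7m+/+Leprdb/Nju) and 3 of their db/m littermates, and all 6 animals were males aged 10 weeks. The labels of the samples name the strain as C57BL/6 and the genotypes as Lepr-/- and wild type, whereas the methods of the study describe the BKS background, in which db/m animals carry 1 db allele. The db allele is carried in every cell of the body, so that differences between the groups cover obesity and hyperglycaemia as well as loss of leptin signalling in the islet. No source says whether islets of several mice were pooled, and p-values measure the spread between these 6 samples alone.

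Lipogenesis turns surplus carbohydrate carbon into fatty acids. Citrate exported from mitochondria is split to acetyl-CoA, which is carboxylated to malonyl-CoA and built up to palmitate with NADPH as reductant, and elongases and desaturases then lengthen palmitate and introduce double bonds. In liver and adipose tissue these genes are transcribed under the control of SREBP-1c, ChREBP and LXR. In β cells, malonyl-CoA also restrains the entry of fatty acids into mitochondria, and monounsaturated fatty acids are less harmful than saturated ones.

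Between 15641797 and 20614531 reads per library were counted on genes. Levels are given as CPM, read counts relative to library size after TMM scaling (which sets library sizes so that most genes do not differ). Of the reads, 68.8% to 75.3% in db/db mice and 52.7% to 66.6% in db/m mice came from 32 genes of acinar cells, the enzyme-secreting cells that surround the islets, while 18 β-cell genes held 0.154% to 0.656% and 0.793% to 4.50%. The preparations labelled islets therefore held mostly acinar RNA, and the summed level of the β-cell genes did not overlap between the groups (2547 to 6609 CPM in db/db mice and 7965 to 25852 CPM in db/m mice). The study, by contrast, checked by insulin staining that its islets for sequencing were free of acinar cells, and reports that most isolated cells were positive. db/m replicate 1 stood apart, with the lowest share of acinar reads, the highest share of β-cell reads and a TMM factor of 1.75, against 0.605 in db/db replicate 1. In such bulk samples, fewer cells of a type and less RNA per cell cannot be told apart. Lepr, the leptin receptor gene, had 4, 10 and 68 reads in db/db mice and 37, 25 and 8 in db/m mice. The db mutation alters the splicing of Lepr, so that its reads per gene do not check the labels.

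Scd1 was the only tested member with an adjusted p under 0.05 between the groups (edgeR's quasi-likelihood test), though not under all settings examined. Its closest relative, Scd2, is the natural comparison. Both encode stearoyl-CoA desaturases, enzymes of the endoplasmic reticulum that place a double bond in palmitoyl-CoA and stearoyl-CoA, and they lie near each other on chromosome 19 (GRCm38, which is mm10), Scd1 at chr19:44394455-44407879 on the minus strand and Scd2 at chr19:44293674-44306864 on the plus strand. Over 1065 aligned coding bases, 962 were identical (90.3%). The stretch from the first to the second histidine box, motifs that hold the iron of the active site, is shown because it holds parts of the active site that both enzymes share. It spans coding bases 346 to 471 of Scd1 (chr19:44403165-44403248 and chr19:44401857-44401898, minus strand) and 355 to 480 of Scd2 (chr19:44298087-44298170 and chr19:44299609-44299650, plus strand). Both are written 5′ to 3′, and capitals mark the 6 of 126 bases at which they differ.
Scd1: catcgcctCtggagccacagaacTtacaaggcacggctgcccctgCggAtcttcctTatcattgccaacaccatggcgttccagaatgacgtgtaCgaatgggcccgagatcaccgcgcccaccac
Scd2: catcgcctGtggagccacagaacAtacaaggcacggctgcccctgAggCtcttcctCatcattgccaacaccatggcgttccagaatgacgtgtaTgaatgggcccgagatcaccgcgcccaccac
The longest run without a difference was 147 bases. Nevertheless, of the 50-base stretches in all exons, 2.97% of those of Scd1 were also found in Scd2, and 2.66% of those of Scd2 in Scd1, so that few reads of this length would match both genes. With all other annotated genes counted, 4.56% of the stretches of Scd1 and 3.97% of those of Scd2 also occur elsewhere.

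Acly encodes ATP citrate lyase, the enzyme that splits citrate to cytosolic acetyl-CoA (chr11:100476353-100528000, minus strand). It had 84.2, 140 and 91.3 CPM in the 3 db/db mice and 312, 139 and 152 CPM in the 3 db/m mice. The groups overlapped, since db/db replicate 2 reached the level of db/m replicate 2, and db/m replicate 1 was far above the other libraries. The means were 105 ± 30.1 CPM (SD, n = 3) and 201 ± 96.4 CPM (SD, n = 3). The log2 fold change of db/db over db/m was -0.94 (standard error (SE) 0.37, 95% interval -1.78 to -0.09), which did not pass the threshold (adjusted p = 0.284, edgeR's quasi-likelihood test with Benjamini-Hochberg adjustment). Without db/m replicate 1 it was -0.44. With a score of the β-cell genes as a covariate, a setting chosen after seeing the data, it turned to 0.56 (SE 0.43). The β-cell genes did not overlap between the groups in summed level. With 3 mice a group, a fit with this score therefore cannot tell β-cell content apart from the groups, here or for the genes below. The acinar genes did not overlap in summed level either, so that fits with an acinar score, used below, cannot fully tell acinar content apart from the groups.

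Acaca and Acacb encode the acetyl-CoA carboxylases that make malonyl-CoA, the form in the cytosol and the form at the outer mitochondrial membrane respectively. Acaca (chr11:84129672-84401651, plus strand) was close to undetected, with 5, 0 and 0 reads in db/db mice and 8, 4 and 3 in db/m mice, and it did not pass the filter on low counts. Of the 50-base stretches in its annotated exons, 30.4% also occur in other genes, and reads on these may have been dropped or shared by the counting, which was not tested. Gapdh, a gene of glycolysis that every cell uses, was looked up after these values had been seen and likewise had 10 to 23 reads in db/db mice and 36 to 89 in db/m mice, so a low count in this table is not evidence that a transcript was absent.

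Acacb (chr5:114146535-114250761, plus strand) carried the reads of the pair, with 64.3, 133 and 94.8 CPM in db/db mice and 50.2, 122 and 60.9 CPM in db/m mice. The groups overlapped almost entirely, and replicate 2 was the highest in both. Its log2 fold change was 0.33 (SE 0.39, 95% interval -0.56 to 1.21), with an adjusted p of 0.727 in edgeR's quasi-likelihood test. The ratio of Acaca to Acacb reads per kilobase of exon was at most 0.00387 in any mouse, and its difference between the groups, -2.08 on the log2 scale, was not distinguishable from the spread (two-sided exact permutation test, p = 0.4, and 0.6 after Benjamini-Hochberg adjustment over the 3 ratios examined).

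Fasn encodes fatty acid synthase, which assembles palmitate from acetyl-CoA and malonyl-CoA (chr11:120805846-120824547, minus strand). Its levels were 51.0, 82.0 and 64.4 CPM in db/db mice and 80.3, 73.0 and 64.9 CPM in db/m mice. All db/m values lay within the range of the db/db mice, and the means of 65.8 ± 15.5 CPM (SD, n = 3) and 72.7 ± 7.73 CPM (SD, n = 3) were close. The log2 fold change was -0.14 (SE 0.25), with a 95% interval of -0.71 to 0.42, so that a change of the size seen for Scd1 lies outside the interval (adjusted p = 0.822, edgeR's quasi-likelihood test). Thrsp, which encodes the thyroid hormone-responsive spot 14 protein of lipogenic tissues (chr7:97412938-97417730, minus strand), had 1, 3 and 1 reads in db/db mice and 7, 7 and 4 in db/m mice. These counts left it out of the test.

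Me1 encodes cytosolic malic enzyme, which supplies NADPH (chr9:86581371-86695953, minus strand). It had 1.69, 3.95 and 1.68 CPM in db/db mice and 4.0, 1.75 and 2.82 CPM in db/m mice, and the groups overlapped. The log2 fold change was -0.23 (SE 0.48, adjusted p = 0.857 from edgeR's quasi-likelihood test). Its value is uncertain, since 28.3% of the 50-base stretches of Me1 also occur in other annotated genes, namely Gm48795, Gm7049 and Gm7329.

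The elongases add carbon units to fatty acids, Elovl6 to saturated chains such as palmitate and Elovl5 to polyunsaturated chains. Elovl6 (chr3:129532355-129638495, plus strand) had 4, 7 and 1 reads in db/db mice and 30, 8 and 7 in db/m mice, and was not tested. Elovl5 (chr9:77917364-77984519, plus strand) had 3.05, 2.27 and 2.15 CPM in db/db mice and 7.52, 3.09 and 3.90 CPM in db/m mice. Every db/db value lay below every db/m value, though the highest db/db and the lowest db/m mouse were nearly level. The log2 fold change was -0.97 (SE 0.41, 95% interval -1.89 to -0.05) and did not pass the threshold (adjusted p = 0.311, edgeR's quasi-likelihood test). It was -0.47 without db/m replicate 1, the mouse that stood apart in acinar reads, β-cell reads and TMM factor, and the cause of this shift was not tested. With the acinar score as a covariate the log2 fold change of Elovl5 was -0.46 (SE 0.47). With the β-cell score, chosen after seeing the data, it was -0.045, with a wider SE of 0.75. The ratio of Elovl6 to Elovl5 reads overlapped between the groups (difference of -0.40 on the log2 scale, two-sided exact permutation test, p = 0.7, and 0.7 after adjustment over the 3 ratios).

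**Figure D1:**
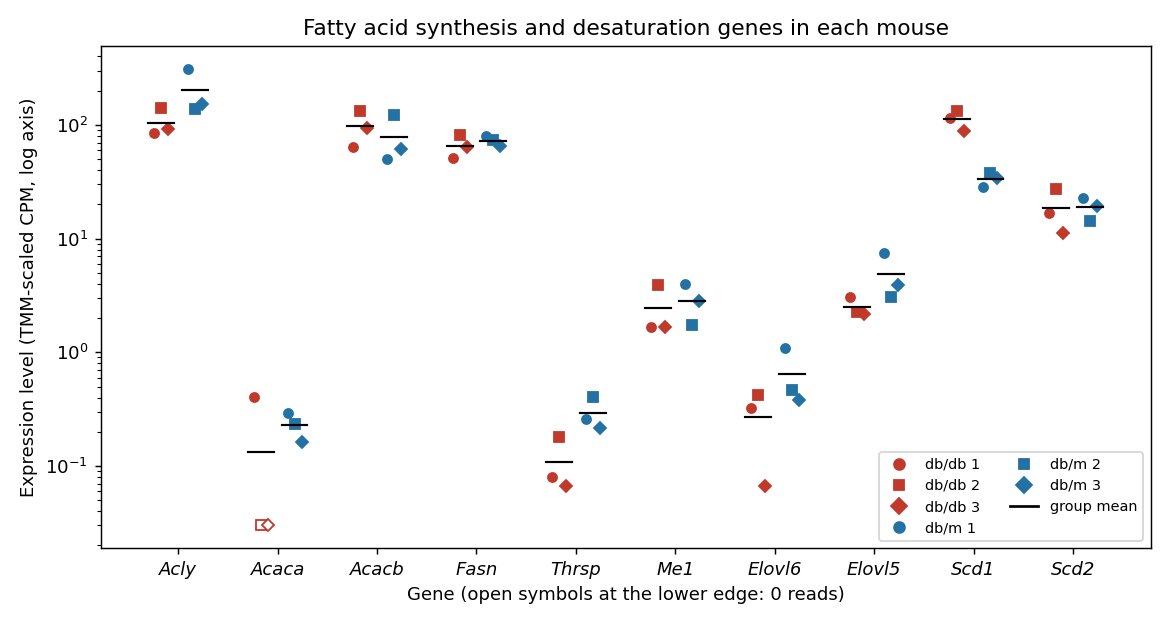
Level of each of the 10 genes in each mouse (TMM-scaled CPM, log axis; red, db/db; blue, db/m; symbols 1 to 3, replicates; lines, group means; open symbols, 0 reads). Scd1 lay at 89.2 to 134 CPM in db/db mice and at 28.6 to 38.1 CPM in db/m mice, whereas Acacb, Fasn and Scd2 overlapped between the groups and Acaca, Thrsp and Elovl6 were near the limit of detection.

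Scd1 had 1420, 2234 and 1327 reads in db/db mice and 779, 655 and 630 in db/m mice, which came to 114, 134 and 89.2 CPM against 28.6, 38.1 and 34.1 CPM. Every db/db mouse was above every db/m mouse, both in reads and in CPM, and in CPM the gap between the groups was larger than the range within either. The means were 112 ± 22.2 CPM (SD, n = 3) and 33.6 ± 4.8 CPM (SD, n = 3). Scd1 rose 3.34-fold in db/db mice (log2 fold change 1.74, SE 0.26, 95% interval 1.16 to 2.32, adjusted p = 0.0246 in edgeR's quasi-likelihood test with Benjamini-Hochberg adjustment over 12760 genes). Among all tested genes it was in place 35 by p-value, and in place 10 among those higher in db/db mice. Its mean level stood at percentile 88.5 of the tested genes in db/m mice and at percentile 97.7 in db/db mice.

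Scd2 had 16.9, 27.3 and 11.1 CPM in db/db mice and 23.0, 14.3 and 19.5 CPM in db/m mice. All db/m values fell inside the range of the db/db mice. The means were 18.4 ± 8.19 CPM (SD, n = 3) and 18.9 ± 4.36 CPM (SD, n = 3), and the log2 fold change was -0.04 (SE 0.34, 95% interval -0.81 to 0.73, adjusted p = 0.969 in edgeR's quasi-likelihood test). The interval of Scd2 therefore did not reach that of Scd1.

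Within a library, the ratio of Scd1 to Scd2 does not depend on how libraries are scaled. There were 6.72, 4.89 and 8.02 Scd1 reads for each Scd2 read in db/db mice and 1.24, 2.66 and 1.74 in db/m mice. Per kilobase of exon the ratios were 7.5, 5.47 and 8.96 against 1.39, 2.97 and 1.95, so that Scd1 was the more abundant desaturase transcript in all 6 mice. The groups did not overlap. The ratio was 3.58-fold higher in db/db mice, with mean log2 ratios of 2.68 ± 0.36 (SD, n = 3) and 0.84 ± 0.55 (SD, n = 3) (exact permutation test over mice, two-sided, p = 0.1, the lowest possible for 3 mice against 3, and 0.3 after adjustment over the 3 ratios). Leaving out each mouse in turn gave log2 differences of 1.57 to 2.12. The other paralogues of the cluster were hardly seen, Scd3 with 0 reads in all 6 libraries and Scd4 with 0 to 3.

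**Figure D2:**
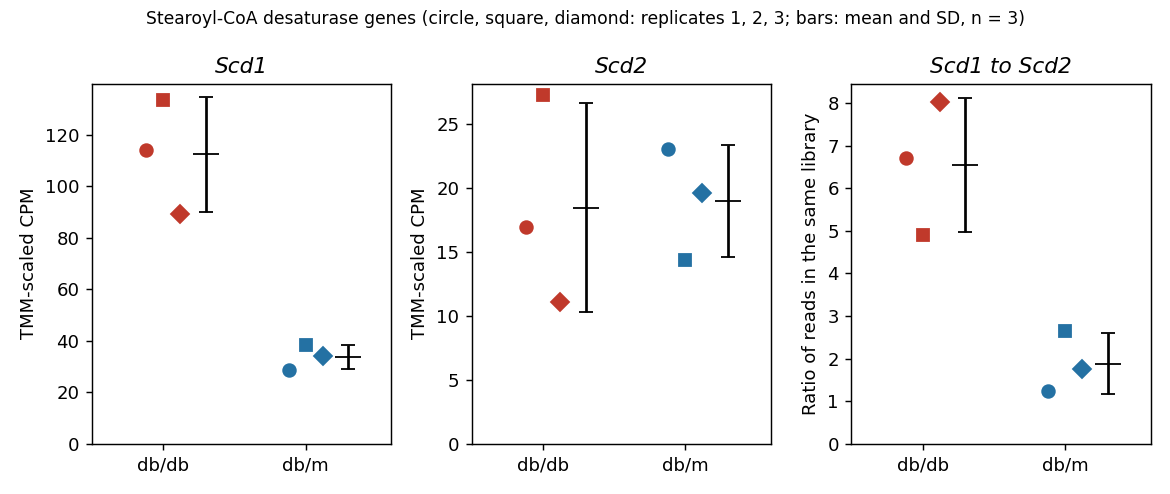
Scd1 (left), Scd2 (middle, both TMM-scaled CPM) and the ratio of Scd1 to Scd2 reads (right) in each mouse, with means and SD (n = 3) as bars. Scd1 and the ratio separated the groups (ratio 4.89 to 8.02 in db/db mice and 1.24 to 2.66 in db/m mice), whereas Scd2 did not.

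The direction of Scd1 was the same under all 16 alternative settings, but its call was not. Over them the log2 fold change lay between 1.2 and 1.89, and the unadjusted p stayed under 0.05 in all 16, but the adjusted p ranged from 7.3e-09 with DESeq2 to 0.251 and was under 0.05 in 7. With edgeR's test it missed the threshold without db/db replicate 1 (adjusted p = 0.113), db/db replicate 2 (0.128), db/db replicate 3 (0.0899), db/m replicate 1 (0.0508) or db/m replicate 2 (0.0780), and passed without db/m replicate 3 (0.0341). It also missed the threshold with library size in place of TMM factors (log2 fold change 1.2, adjusted p = 0.171). That setting moved the median log2 fold change of all genes from -0.00 to -0.59, and relative to this median Scd1 was at 1.78. Taking the median as reference brings back the premise of TMM that most genes do not differ, so that 1.78 is not an independent check.

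**Figure D3:**
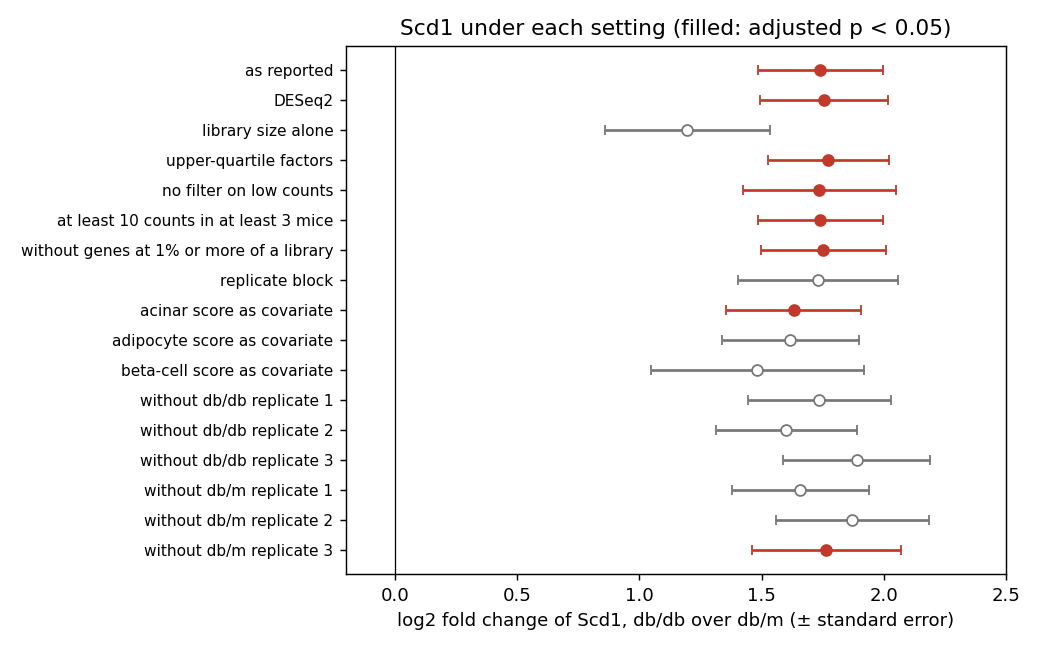
Log2 fold change of Scd1, db/db over db/m, with its standard error, as reported and under 16 alternative settings (filled, adjusted p under 0.05; open, not). All estimates lay between 1.2 and 1.89, and 7 of the 16 alternatives passed the threshold.

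Scd1 is also a main transcript of adipocytes, which surround the pancreas, and so the adipocyte markers were read beside it. Of 11 adipocyte genes, 6 had 0 reads in every db/db mouse, among them Adipoq (adiponectin), Lep (leptin), Retn (resistin) and Cfd (adipsin), and Plin1, the coat protein of fat droplets, had 0, 0 and 3 reads. In db/m mice Adipoq had 8, 10 and 0 reads, Cfd 19, 68 and 0, and Retn 2, 0 and 0, while Lep had 0 reads in all 6 libraries. Slc2a4, also on the list, had 2, 12 and 0 reads in db/db mice and 2, 18 and 1 in db/m mice. As with Gapdh above, few or 0 reads in this table are not evidence that a transcript was absent. The summed level of the 11 genes was 15.6 to 26.0 CPM in db/db mice and 18.4 to 40.1 CPM in db/m mice. Most reads of the list came from genes that other cells also use, with 273, 186 and 272 reads of Pnpla2, 30, 56 and 86 of Lipe and 19, 7 and 21 of Fabp4 in db/db mice. With the adipocyte score as a covariate the log2 fold change of Scd1 was 1.62 (adjusted p = 0.110, edgeR's quasi-likelihood test). That score used only the 3 genes of the list that passed the filter on low counts, Pnpla2, Lipe and Fabp4. It therefore does not measure the genes particular to adipocytes.

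The β-cell and acinar genes mostly lay in opposite directions. Of 18 genes of β cells, 16 had a lower level in db/db mice at an unadjusted p under 0.05 by edgeR (9.89% of all tested genes did). The median log2 fold change over the list was -2.56. Of 32 acinar genes, 30 had a positive log2 fold change, as did 6371 of all 12760 tested genes, and the median of the list was 0.68. At an unadjusted p under 0.05 by edgeR, 2 of the 32 were higher, against 5.04% of all tested genes, and 0 were lower. At an adjusted p under 0.05 by edgeR, 1 was higher, against 0.133% of all tested genes. Every db/db mouse was above every db/m mouse in 10 of the 32, against 8.53% of all tested genes, and below in 0, against 12.6%. With the acinar score as a covariate Scd1 was at 1.63 (SE 0.28, adjusted p = 0.0473). With the β-cell score, chosen after seeing the data, it was at 1.48 (SE 0.43, adjusted p = 0.251, both from edgeR's quasi-likelihood test). Neither the acinar nor the β-cell genes overlapped between the groups in summed level. Neither fit can therefore set the content of these cells apart from the groups. Which cells carried the Scd1 reads was not tested. The remaining lists overlapped between the groups in summed level: other endocrine cells had 418 to 878 CPM in db/db and 307 to 1946 CPM in db/m mice, duct cells 168 to 216 and 110 to 177 CPM, and stromal cells 38.4 to 70.7 and 7.80 to 53.3 CPM. Likewise, endothelial genes had 13.1 to 25.4 and 15.1 to 44.3 CPM and leukocyte genes 17.3 to 78.5 and 4.49 to 57.7 CPM. Only Schwann cell genes among these minor lists were apart, at 2.57 to 4.07 and 4.55 to 5.58 CPM. These are low levels, and Sox10 and S100b had 0 reads in every db/db mouse. Of the 5 Schwann cell genes, 3 were tested, and 0 had an unadjusted p under 0.05 by edgeR.

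Over the list, 7 of the 10 genes were tested. By edgeR, 1 of the 7 (Scd1) had an adjusted p under 0.05, against 0.619% of the 12760 tested genes in either direction and 0.133% in the direction of Scd1. At an unadjusted p under 0.05, 1 was higher, against 5.04% of all tested genes, and 2 (Acly and Elovl5) were lower, against 9.89%. Scd1 was the tested member above all db/m mice in every db/db mouse, and Elovl5 the one below them, against 8.53% and 12.6% of all tested genes. The median log2 fold change of the 7 was -0.14, and that of all tested genes was -0.00.

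Per kilobase of exon, the order of the genes differed at the top. In db/m mice Acly was first, with 38.1 ± 18.3 CPM per kb (SD, n = 3), then Acacb with 8.07 ± 4.03, Scd1 with 6.87 ± 0.980 and Fasn with 6.64 ± 0.706. In db/db mice Scd1 came first with 22.9 ± 4.54 CPM per kb, then Acly with 19.9 ± 5.71, Acacb with 10.1 ± 3.59 and Fasn with 6.01 ± 1.42. Acly was above Acacb in every comparison of mice within either group, whereas Scd1 and Acly in db/db mice, and Acacb, Scd1 and Fasn in db/m mice, overlapped with their neighbours and could not be ranked. Scd2 followed in both groups (3.37 ± 1.5 and 3.47 ± 0.797 CPM per kb), and by their means Elovl5, Me1, Thrsp, Elovl6 and Acaca came after it. Elovl5 and Me1, and Thrsp and Elovl6, overlapped in both groups, and Acacb and Fasn, Fasn and Scd2, and Elovl6 and Acaca overlapped in db/db mice. Scd2 was above Elovl5, and Me1 above Thrsp, without overlap in both groups.

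As a share of the reads on the 10 genes, Scd1 took 33.9%, 25.6% and 25.2% in db/db mice and 5.64%, 9.72% and 10.1% in db/m mice. Acly took 25.1%, 26.7% and 25.7% in db/db mice and 61.5%, 35.4% and 44.8% in db/m mice. The lowest share of Scd1 in db/db mice was above the highest in db/m mice, and Acly was the reverse. Fasn took 15.2% to 18.1% and 15.8% to 19.1%, and Acacb took 19.1% to 26.7% in db/db mice and 9.89% to 31.1% in db/m mice. These shares sum to a fixed whole, so that a rise of 1 gene lowers the others. The 10 genes together held 0.0203%, 0.0519% and 0.0326% of all reads in db/db mice and 0.0883%, 0.0417% and 0.0329% in db/m mice, which overlapped.

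**Figure D4:**
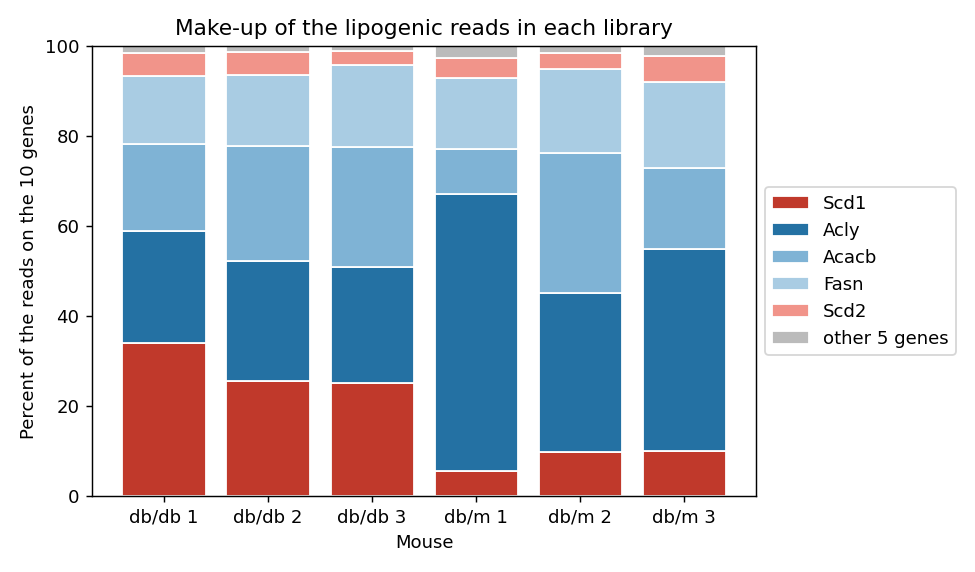
Share of each gene in the reads on the 10 lipogenic genes, in percent, for each mouse. Scd1 held 25.2% to 33.9% in db/db mice and 5.64% to 10.1% in db/m mice, and Acly held 25.1% to 26.7% and 35.4% to 61.5%.

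The genes around this route were examined in 8 lists with 85 genes, of which 76 were tested. By edgeR's quasi-likelihood test 0 of the 76 had an adjusted p under 0.05, and 5 were higher and 5 lower at an unadjusted p under 0.05, against 5.04% higher and 9.89% lower of all tested genes, shares that apply to the counts of the single lists as well. DESeq2 called 1 (Mlxipl), and edgeR without a filter on low counts called 2 (Mlxipl and Lpin1). The median log2 fold change of the 76 genes was 0.09.

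Of the 16 regulators, 2 were higher and 1 was lower at an unadjusted p under 0.05. Mlxipl, which encodes ChREBP, the glucose-responsive activator of lipogenic genes, had 6.50, 15.8 and 14.5 CPM in db/db mice and 64.3, 53.0 and 25.4 CPM in db/m mice. All db/db values were below all db/m values, and the log2 fold change was -1.95 (SE 0.42, adjusted p = 0.0819 by edgeR, and 1.5e-05 to 0.880 over 16 alternatives). With the acinar score as a covariate the log2 fold change of Mlxipl was -1.22 (SE 0.35), and with the β-cell score, chosen after seeing the data, it was -0.29 (SE 0.56). Srebf1, which encodes SREBP-1, had 5.54, 17.8 and 6.05 CPM in db/db mice and 8.41, 6.12 and 5.52 CPM in db/m mice, and 1 db/db mouse alone was above the rest. Scap, the escort of SREBP proteins to the Golgi, had a log2 fold change of 0.64 (SE 0.25, adjusted p = 0.281), and Nr1h2, which encodes LXRβ, one of 0.55 (SE 0.20, adjusted p = 0.253). Insig1, which retains SCAP in the endoplasmic reticulum, had one of -0.49 (SE 0.24, adjusted p = 0.379). All 3 adjusted p are from edgeR's quasi-likelihood test. With the β-cell score Scap was at 0.59 (SE 0.45), Nr1h2 at 0.73 (SE 0.37) and Insig1 at -1.22 (SE 0.34).

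Of the 11 genes that supply acetyl-CoA and of the 6 tested genes that supply NADPH beside Me1, 0 passed an unadjusted p of 0.05 by edgeR. Log2 fold changes were 0.50 for Cs (citrate synthase), 0.33 for Pdha1 (pyruvate dehydrogenase), -0.65 for Acss2 (acetyl-CoA synthetase) and -0.46 for Pcx (pyruvate carboxylase). In the NADPH list they were -0.04 for Pgd and -0.07 for Tkt of the pentose phosphate pathway, 0.21 for Taldo1 and 0.36 for Idh1, the cytosolic isocitrate dehydrogenase.

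Among 7 genes that control acetyl-CoA carboxylase and its product, 1 was higher and 2 were lower at an unadjusted p under 0.05. Prkaa1, a catalytic subunit of AMPK, the kinase that inactivates the carboxylases, had 13.6, 10.1 and 14 CPM in db/db mice and 30.2, 21.9 and 17.9 CPM in db/m mice, without overlap. Its log2 fold change was -0.89 (SE 0.27, adjusted p = 0.164 from edgeR), and -0.37 (SE 0.50) with the β-cell score as a covariate. Prkab2, a regulatory subunit, was at -0.93 (SE 0.35, adjusted p = 0.258), Prkaa2, the other catalytic subunit, at 0.58 (SE 0.35, adjusted p = 0.469), and Mlycd, which breaks malonyl-CoA down, at 0.70 (SE 0.30, adjusted p = 0.321 from edgeR). With the β-cell score Prkab2 was at -0.73 (SE 0.71), Prkaa2 at -0.60 (SE 0.48) and Mlycd at 0.29 (SE 0.59).

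Of 17 further elongation and desaturation genes, 11 were tested and 1 was lower at an unadjusted p under 0.05. This was Hsd17b12, the ketoacyl reductase of the elongation cycle, with 9.95, 8.25 and 9.15 CPM in db/db mice and 23.1, 11.4 and 14.7 CPM in db/m mice (log2 fold change -0.85, SE 0.29, adjusted p = 0.221 from edgeR). With the β-cell score as a covariate it was at -0.15 (SE 0.53). Elovl1 was at 0.59, Ptpla (Hacd1, a dehydratase of the cycle) at 0.57 and Ptplad1 (Hacd3) at -0.42. Elovl3 had 0 reads in all libraries. Of the 4 genes that pass electrons to the desaturases, 0 had an unadjusted p under 0.05 by edgeR, and Cyb5 (cytochrome b5, Cyb5a) was at 0.33, Cyb5r1 at 0.71 and Cyb5r3 at -0.48.

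Of 6 genes of mitochondrial fatty acid synthesis, 1 was higher at an unadjusted p under 0.05. This was Mecr, the enoyl reductase of that route, with 24.8, 48.7 and 26.8 CPM in db/db mice and 15.9, 15.7 and 23.4 CPM in db/m mice (log2 fold change 0.87, SE 0.32, adjusted p = 0.247 from edgeR). With the β-cell score Mecr was at 0.98 (SE 0.60). Oxsm was at 0.53 and H2-Ke6 (Hsd17b8) at -0.27. Of 17 genes that activate fatty acids or build glycerolipids, 15 were tested, of which 1 was higher and 1 lower at an unadjusted p under 0.05. Gpam, the mitochondrial acyltransferase that begins triglyceride synthesis, had 60.1, 72.6 and 71.3 CPM in db/db mice and 31.5, 55.2 and 47.3 CPM in db/m mice (log2 fold change 0.61, SE 0.26, adjusted p = 0.321 from edgeR). Its log2 fold change was 0.16 (SE 0.45) with the β-cell score as a covariate. Lpin1, a phosphatidate phosphatase, had 5.94, 15.8 and 10.8 CPM in db/db mice and 29.5, 28.0 and 14 CPM in db/m mice. The groups overlapped in Lpin1 (log2 fold change -1.13, SE 0.40, adjusted p = 0.230 by edgeR, and 0.0230 to 0.893 over 16 alternatives), and with the β-cell score its log2 fold change was 0.28 (SE 0.60). Acsl6 was at -0.82 and Agpat2 at 0.49.

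**Figure D5:**
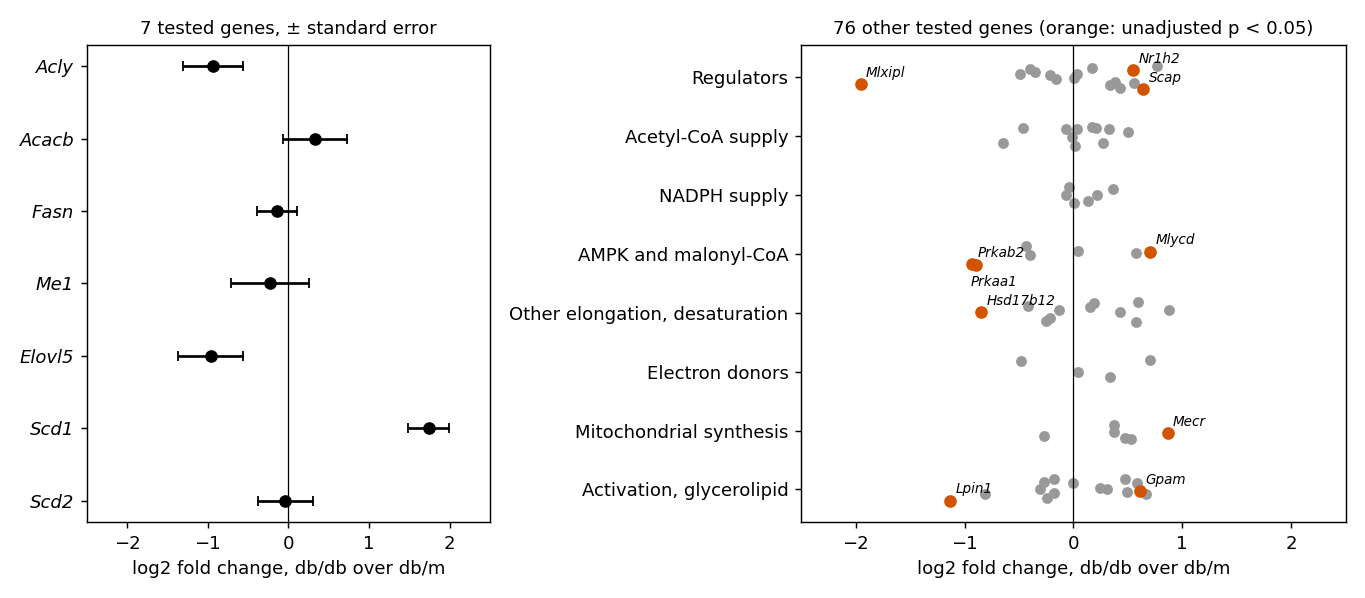
Log2 fold change, db/db over db/m, of the 7 tested members with standard errors (left) and of 76 tested genes of 8 lists around the route (right; orange, unadjusted p under 0.05). Scd1, at 1.74, stood apart from the other 6 members, which lay between -0.97 and 0.33, and in the other lists Mlxipl, at -1.95, was the farthest from 0.

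The genes whose levels followed Scd1 most closely over the 6 mice were looked for among 4992 genes with a mean of at least 10 CPM, by the root mean square difference of mean-centred log2 CPM. The 5 nearest were Syt3 (0.330), Tle6 (0.336), 1810018F18Rik (0.369), Pdcd4 (0.371) and Abcb6 (0.387). Syt3, a synaptotagmin, had 14.9, 19.4 and 23.0 CPM in db/db mice and 5.98, 7.28 and 5.69 CPM in db/m mice. Since Scd1 itself separated the groups, genes chosen for a like profile do so by selection.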

How the data were processed

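Islets were isolated by collagenase digestion and a density gradient, and whole transcriptomes of 3 db/db and 3 db/m mice were sequenced. The authors deposited read counts for each gene symbol and mouse, unnormalized. The study's methods name TopHat and mm10, whereas the submitters' processing notes name HISAT2 2.0.4; the counter, its annotation and its use of strand are not given in the sources used here. Totals lay between 15641797 and 20614531 counts (median 16531273), which limits precision for genes with few reads.

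Differential expression was assessed with edgeR 4.0.16 under R 4.3.3 (filterByExpr defaults, TMM, quasi-likelihood F-test; tested on simulated data) and Benjamini-Hochberg adjustment over 12760 genes, with a threshold of 0.05. Libraries within a group differed beyond sampling noise (chi-square of counts divided by its degrees of freedom, 29.7 to 166). Ratios had 0.5 counts added to both genes and were tested by exact permutation of the mice, two-sided. Positions, exon lengths and 50-base stretches came from the GRCm38 reference and its annotation, with Python 3.11.15, and may differ from the annotation used for counting. Without stated strand, reads of Acacb, Acaca, Me1 and Elovl6 cannot be told apart from those of overlapping genes on the opposite strand (Gm13784, Gm11437, A330041J22Rik and Gm35986).

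The 10 genes and all lists were chosen with earlier results of these data known. Genes named were the 10 members, in each other list the genes with an adjusted p under 0.05 plus the 2 higher and 2 lower with the smallest p, Lepr, cell type markers at or near 0, and the 5 profiles nearest to Scd1. Srebf1, Scd3, Scd4, Elovl3 and Gapdh were named after their values were seen. The 16 alternatives were DESeq2 1.42.0, upper-quartile factors, scaling by library size alone, testing unfiltered genes, a minimum of 10 counts in 3 or more mice, removal of genes that hold 1% or more of a library, a block for the replicate number, acinar, adipocyte and β-cell scores (mean log2(CPM + 1)) as covariates, and leaving out each mouse. Each score used the tested genes of its list, which for adipocytes were 3 of 11. The β-cell score was added after seeing the data and cannot be told apart from the groups. The acinar score cannot be fully told apart from them, since the summed level of its genes did not overlap between the groups. CircRNA counts were not analysed here.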

Additional observations from a re-analysis of the deposited data

How the results depend on the processing

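Of 592 alternative log2 fold changes of named genes, 539 kept their direction and their side of the threshold, 40 changed direction, 9 (all of Scd1) lost the call and 4 gained one. The gains were Mlxipl with DESeq2 (adjusted p = 6.9e-04), without a filter (1.5e-05, edgeR) and without db/m replicate 3 (0.0304, edgeR), against a range of 1.5e-05 to 0.880, and Lpin1 without a filter (0.0230, edgeR). The cause was not tested for any of these. The count of genes past the adjusted threshold, 79 as reported, was 707 with DESeq2, 21 with library size alone, 52 with upper-quartile factors, 888 without a filter, 20 with the adipocyte score and 12 with the β-cell score, and 10 (without db/db replicate 2) to 333 (without db/m replicate 3) with 1 mouse left out. Of the members, 0 were called in place of 1 with library size alone, the adipocyte score or the β-cell score, and 0 to 1 with 1 mouse left out. At an unadjusted p under 0.05 there were 1 in place of 3 with the acinar, adipocyte or β-cell score, and 1 (without db/db replicate 3 or db/m replicate 1) to 4 (without db/m replicate 2) with 1 mouse left out.

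No source pairs the mice by replicate number, and residuals around the group means correlated between mice with the same number at -0.53, -0.18 and -0.32. With edgeR, a block for the replicate number left 16 genes called, 0 of them members, and 1 member had an unadjusted p under 0.05. Scd1 was at 1.73 (adjusted p = 0.147, edgeR, in a range of 7.3e-09 to 0.251). The difference of 1.84 in the Scd1 to Scd2 log2 ratio cannot change with the block, because both groups have the same number of mice.

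Changes of direction were found in genes that were not called. With library size alone log2 fold changes were -0.10 for Acacb, -0.034 for Nr1h2, -0.076 for Cs, -0.21 for Pdha1, -0.39 for Taldo1, -0.23 for Idh1, -0.22 for Cyb5, -0.024 for Oxsm and -0.12 for Agpat2, against a median of all genes of -0.59. With the acinar score they were 0.11 for Fasn, 0.33 for Me1, 0.24 for Scd2, -0.15 for Pdha1, 0.22 for Pgd and -0.073 for Cyb5. With the β-cell score they were 0.56 for Acly, 0.47 for Fasn, 1.06 for Me1, 0.57 for Scd2, -0.31 for Cs, 0.31 for Acss2, -0.76 for Pdha1, 0.0053 for Pcx, 0.64 for Pgd, -0.24 for Taldo1, -0.60 for Prkaa2, -0.45 for Elovl1, -0.59 for Cyb5, 0.48 for Cyb5r3, -0.17 for Oxsm and 0.28 for Lpin1. With 1 mouse left out, values ran from -0.33 to 0.018 for Fasn, -0.76 to 0.13 for Me1, -0.43 to 0.23 for Scd2, -0.23 to 0.17 for Pgd and -0.16 to 0.0028 for Tkt. The ratio of Elovl6 to Elovl5 was at 0.16 without db/db replicate 3. The cause was not tested. Depth limits Acaca, Thrsp and Elovl6, with at most 30 reads in any library.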
